A study of Mus musculus with 34 samples.

Results

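The mitochondrial ribosomal protein genes were examined in dorsal hippocampi from homecage mice and from mice trained in spatial object recognition (SOR). They were taken from the bulk RNA-seq count table as the protein-coding genes whose GENCODE symbol begins with Mrpl or Mrps followed by a digit, which gave 78 of the 54532 genes in the table. All 78 passed the filter on low counts and stood among the 22018 genes tested. The 4 homecage mice and the 4 SOR mice were adult C57BL/6J males of 2 to 3 months, and no transgene or drug is named for them. Each mouse gave 1 library. SOR training took place in an arena that held glass objects, and the trained mice were euthanized 1 h after the last trial. The whole dorsal hippocampus was dissected, so every cell type of the tissue enters each value, and in such samples fewer cells of a type and less RNA per cell cannot be told apart.

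Mitochondria keep a small genome of their own that encodes core subunits of the respiratory chain, and a dedicated ribosome, the mitoribosome, translates them at the inner membrane. All proteins of this ribosome are encoded in the nucleus, made in the cytosol and imported, while its ribosomal RNAs come from mitochondrial DNA. Symbols with Mrpl were given to proteins of the large subunit, which joins amino acids into the chain, and symbols with Mrps to proteins of the small subunit, which reads the mRNA. Neurons, whose synapses draw heavily on oxidative phosphorylation, depend on this machinery. Part of the proteins descend from bacterial ribosomal proteins and the others were added in the mitochondrial lineage. By structure, 51 of the 78 genes belong to the large subunit and 26 to the small subunit. The symbols *Mrps18a* and *Mrps30* were counted with the large subunit, where their proteins sit. *Mrps36*, whose protein is known as a component of the 2-oxoglutarate dehydrogenase complex, was counted with neither.

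Total counts per library ranged from 51406011 to 81525977. Marker genes were read in 12 lists, including CA1, dentate granule, inhibitory neuron, choroid plexus and thalamus genes, and no marker had 0 counts over the samples. Since this held also for lists of tissue outside the hippocampus, it cannot check the tissue label. The choroid plexus list summed to between 25.6 and 1094 CPM in the homecage mice and to between 42.0 and 3995 CPM in the SOR mice. The oligodendrocyte list summed to between 5415 and 5900 CPM in the homecage mice and to between 4427 and 5791 CPM in the SOR mice. The red blood cell list summed to between 98.6 and 127 CPM in the homecage mice and to between 115 and 184 CPM in the SOR mice. The part of these 3 cell types in the results given here was not tested. CPM values are counts scaled to a common library size, here with upper-quartile factors. As a check of the labels, *Arc*, an immediate early gene of neuronal activity, was at 85.4 to 97.0 CPM in the homecage mice and at 218 to 266 CPM in the SOR mice, and it passed the test (log2 fold change 1.42, edgeR quasi-likelihood test, adjusted p = 8.27e-06).

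No mitochondrial ribosomal protein gene passed the test for a change 1 h after SOR training, and most of the 78 estimates lay close to 0. At an adjusted p under 0.05, 0 of the 78 genes were called, against 0.309% of all genes tested, and 0.173% of all genes also passed a 1.4-fold threshold. The smallest adjusted p among the 78 genes was 0.268, for *Mrpl9* (edgeR quasi-likelihood test, p adjusted by Benjamini-Hochberg over all 22018 genes). At an unadjusted p under 0.05 there were 7 of 78 genes, or 8.97%, against 10.1% of all genes tested. Of these, 3 were higher after SOR, where the background in this direction was 4.54%, and 4 were lower, where it was 5.51%. DESeq2 called 1 of the 78 genes, *Mrpl9*, with an adjusted p of 0.048, and 435 of the 22018 genes tested. The likelihood ratio test with 2 RUVs factors, which are estimates of unwanted variation from the replicates, called 1, *Mrps6*, with an adjusted p of 0.037. That fit called 500 of the 22018 genes tested.

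Log2 fold changes of SOR over homecage ranged from -0.21 for *Mrpl40* to 0.41 for *Mrps6*. Their median was -0.03, beside a median of -0.02 over all genes tested. The middle of the distribution was narrow, with quartiles at -0.07 and 0.02, while those of all genes stood at -0.12 and 0.08. Those of the protein-coding genes tested stood at -0.09 and 0.07. The median standard error was 0.070 for the 78 genes, 0.088 for protein-coding genes and 0.121 for all genes. Their median levels were 20.0, 16.1 and 6.92 CPM, and the part of this precision in the quartiles was not tested. A higher mean after SOR was found in 26 genes and a lower one in 52, so 33.3% were higher, against 43.8% of all genes tested. This split depended on the scaling: it was 35 higher and 43 lower with TMM factors and 36 and 42 with RLE factors, which are other ways to scale libraries, and 37 and 41 with offsets for GC content and length. Over all genes tested, 50.2% were higher with TMM factors, 50.7% with RLE factors and 48.3% with the offsets. The share of the 78 genes thus stayed below that of all genes in these settings, which hold all samples. With upper-quartile factors from protein-coding genes, and with 2 or 3 RUVs factors, the split was 24 higher and 54 lower. The 95% interval of the change lay within 1.2-fold in either direction for 56 of the 78 genes and within 1.4-fold for 76, the exceptions being *Mrpl23* and *Mrps6*.

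**Figure D1:**
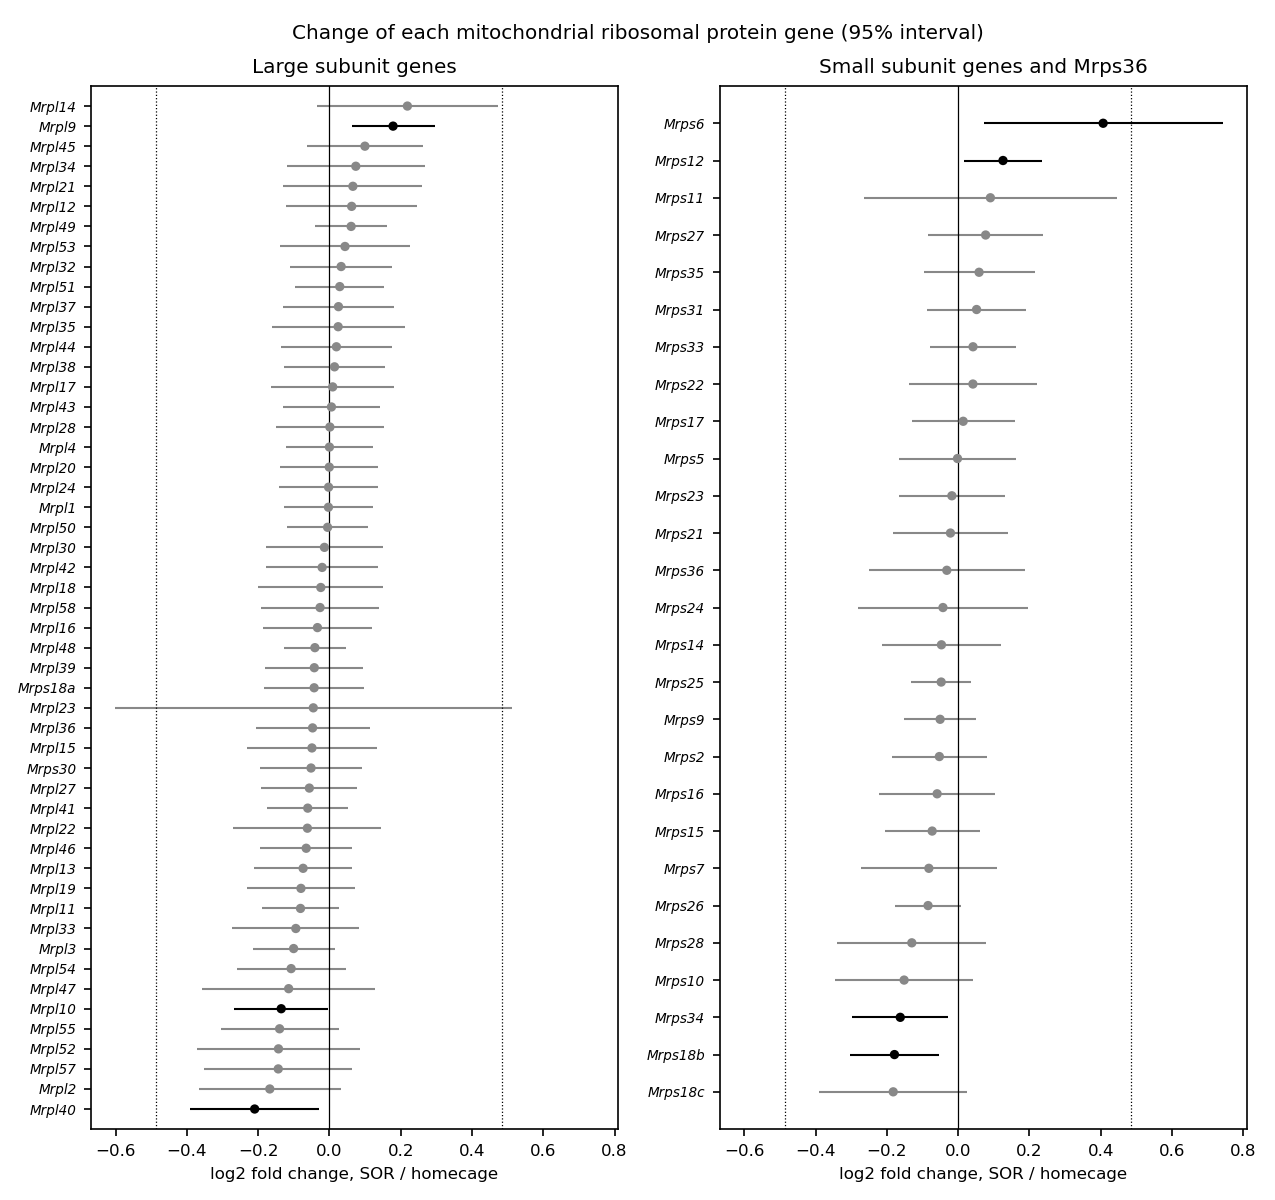
Log2 fold change of SOR over homecage (x axis) for each of the 78 genes, with large subunit genes on the left and small subunit genes and *Mrps36* on the right. Points are edgeR estimates, bars are 95% intervals, black marks an unadjusted p under 0.05, and dotted lines mark a 1.4-fold change; 71 of the 78 intervals include 0.

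In the large subunit 17 genes were higher and 34 lower after SOR, with a median log2 fold change of -0.03. In the small subunit 9 were higher and 17 lower, with a median of -0.04. Among the 45 genes related to bacterial ribosomal proteins 13 were higher and 32 lower, with a median of -0.04, and among the 29 mitochondrial additions 13 were higher and 16 lower, with a median of -0.02. None of these groups held a called gene. An unadjusted p under 0.05 was found in 3 of the 51 large subunit genes (5.88%) and in 4 of the 26 small subunit genes (15.4%), and the difference between the subunits was not tested.

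The distributions of the SOR and homecage values did not overlap in 6 of the 78 genes, or 7.69%, and in 6.94% of all genes tested. *Mrpl9* and *Mrps12* were higher in every SOR mouse than in every homecage mouse, and *Mrpl11*, *Mrps18b*, *Mrps26* and *Mrps34* were lower in every SOR mouse. *Mrpl9* encodes a large subunit protein related to bacterial bL9. Its gene (ENSMUSG00000028140) lies on the plus strand at chr3:94443318-94451130 of GRCm38. *Mrpl9* was at 26.9, 26.0, 26.0 and 24.8 CPM in homecage mice 1 to 4 and at 30.5, 29.2, 27.7 and 29.8 CPM in SOR mice 1 to 4. The lowest SOR value stood above the highest homecage value, with means of 25.9 ± 0.872 and 29.3 ± 1.19 CPM (SD, n = 4 each). The log2 fold change of *Mrpl9* was 0.18 with a standard error of 0.053, which did not pass the adjusted threshold. Its exact two-sided permutation p was 0.0286, the smallest that 70 assignments of 4 against 4 can give. Groups without overlap always give this value, and *Mrpl11*, *Mrps12*, *Mrps18b*, *Mrps26* and *Mrps34* had it too.

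*Mrps12* encodes the uS12 protein at the decoding centre of the small subunit, where codon and anticodon are matched. The gene (ENSMUSG00000045948) lies on the minus strand at chr7:28739641-28741820. Homecage mice 1 to 4 had 29.9, 29.0, 30.3 and 28.7 CPM of *Mrps12*, and SOR mice 1 to 4 had 34.0, 31.4, 31.9 and 31.3 CPM. SOR mouse 1 was the highest, and the other SOR mice lay within 1 CPM of each other and above the homecage range. The log2 fold change of *Mrps12* was 0.13 with a standard error of 0.049 and an adjusted p of 0.43 (edgeR).

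*Mrps6* had the largest positive difference of the 78 genes. It encodes a small subunit protein related to bacterial bS6, and its gene (ENSMUSG00000039680) spans chr16:92058270-92112227. Homecage mice 1 to 4 had 8.68, 7.45, 6.85 and 7.62 CPM of *Mrps6*, and SOR mice 1 to 4 had 13.5, 9.42, 9.55 and 7.99 CPM. The groups overlapped, since SOR mouse 4 lay below homecage mouse 1, and SOR mouse 1 stood well above the other mice. The log2 fold change of *Mrps6* was 0.41 (95% interval 0.07 to 0.74, adjusted p = 0.4, edgeR), and without SOR mouse 1 it was 0.23. Exons of *Mrps6* share 159 bases on the same strand with *Slc5a3*, the gene of a myo-inositol transporter, and 305 bases with *Gm49711*, which was at 0.148 CPM on average, so reads of the shared parts cannot be assigned to 1 gene. *Slc5a3* was at 73.7, 50.2, 55.8 and 64.0 CPM in homecage mice 1 to 4 and at 109, 82.9, 87.6 and 49.4 CPM in SOR mice 1 to 4, with a log2 fold change of 0.44 (adjusted p = 0.506, edgeR). SOR mouse 1 was the highest and SOR mouse 4 the lowest SOR mouse in both genes.

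Of the 6 genes with the lowest log2 fold change, 4 belong to the small subunit, which holds 26 of the 78 genes. *Mrps6*, *Mrps12* and *Mrps11*, among the 6 highest, belong to it too. Among the 6 lowest, *Mrps18b* (ENSMUSG00000024436, chr17:35910379-35916389, minus strand) encodes a form of the S18 protein that is placed in the small subunit. It was at 23.5, 21.9, 22.7 and 23.6 CPM in homecage mice 1 to 4 and at 21.2, 20.6, 19.7 and 19.5 CPM in SOR mice 1 to 4. The groups were separate, and the log2 fold change of *Mrps18b* was -0.18 with a standard error of 0.057 (adjusted p = 0.315, edgeR). The related *Mrps18c*, whose protein takes the place of bacterial bS18, had a log2 fold change of -0.18 with overlapping groups (adjusted p = 0.554, edgeR). *Mrps18a*, the form found in the large subunit, was at 21.2 ± 0.59 CPM in homecage mice against 20.5 ± 1.4 CPM in SOR mice (SD, n = 4 each), with a log2 fold change of -0.04.

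*Mrps34* encodes a small subunit protein without a bacterial relative. It was at 19.4, 18.4, 18.3 and 18.4 CPM in homecage mice 1 to 4 and at 17.1, 16.4, 17.4 and 15.6 CPM in SOR mice 1 to 4. The highest SOR value lay below the lowest homecage value, and the log2 fold change of *Mrps34* was -0.16 with a standard error of 0.061 (adjusted p = 0.405, edgeR). Exons covering 37.0% of the *Mrps34* exonic length are shared on the same strand with *Nme3*, a gene of the nucleoside diphosphate kinase family, which had a log2 fold change of -0.14 (adjusted p = 0.635, edgeR). Exons of *Mapk8ip3*, on the opposite strand, overlap 63.4% of the *Mrps34* exonic length. *Mapk8ip3* was at 289 CPM on average, with a log2 fold change of 0.009. *Mrps26* was lower by less, at 36.5 ± 0.555 CPM in homecage mice against 34.4 ± 0.721 CPM in SOR mice (SD, n = 4 each), a log2 fold change of -0.08 (adjusted p = 0.541, edgeR).

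*Mrpl40* had the lowest log2 fold change of the 78 genes. It encodes a mitochondrial addition to the large subunit, and its human counterpart lies in the chromosomal region lost in the 22q11 deletion syndrome. Homecage mice 1 to 4 had 15.3, 13.4, 14.4 and 14.3 CPM of *Mrpl40*, and SOR mice 1 to 4 had 12.7, 11.9, 11.2 and 13.7 CPM. SOR mouse 4 lay above homecage mouse 2, so the groups overlapped. The log2 fold change of *Mrpl40* was -0.21 with a standard error of 0.082 (adjusted p = 0.426, edgeR). The remaining genes among the 6 highest and the 6 lowest were *Mrpl14* (0.22), *Mrpl45* (0.10) and *Mrps11* (0.09), and *Mrpl2* (-0.17) and *Mrps10* (-0.15), in log2 fold change, each with overlapping groups and adjusted p between 0.562 and 0.897 (edgeR). The log2 fold change of *Mrps10* was -0.08 without homecage mouse 2, and that of *Mrpl45* was 0.06 without SOR mouse 1, 0.07 without homecage mouse 1 and 0.16 without homecage mouse 2. *Mrpl45* encodes the protein that holds the ribosome at the inner membrane, and *Mrpl2* and *Mrpl14* encode conserved proteins of the large subunit core.

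The stalk of the large subunit recruits the translation factors, and its genes were added after their values were seen. *Mrpl10*, which encodes the protein that anchors the stalk, was at 30.3, 31.2, 31.6 and 32.2 CPM in homecage mice 1 to 4 and at 29.6, 27.9, 25.9 and 30.7 CPM in SOR mice 1 to 4. SOR mouse 4 lay within the homecage range (log2 fold change -0.14, adjusted p = 0.488, edgeR). *Mrpl11*, the protein of the stalk base, was at 27.8 ± 0.825 CPM in homecage mice against 26.3 ± 0.546 CPM in SOR mice (SD, n = 4 each), without overlap (log2 fold change -0.08, adjusted p = 0.625, edgeR). *Mrpl12*, the stalk protein itself, was at 18.8 ± 1.42 CPM in homecage mice against 19.6 ± 1.81 CPM in SOR mice (SD, n = 4 each), a log2 fold change of 0.06.

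**Figure D2:**
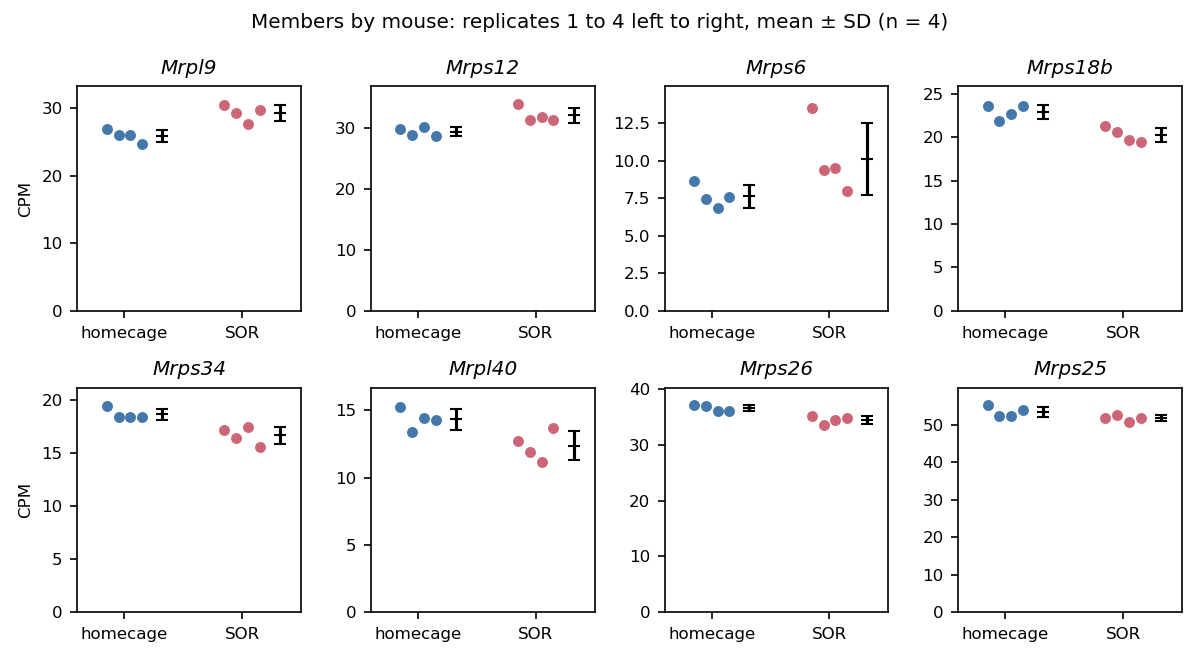
CPM (y axis, from 0) of 8 named genes in the 4 homecage mice (blue) and the 4 SOR mice (red), replicates 1 to 4 from left to right, with the mean and SD in black. *Mrpl9* and *Mrps12* have all SOR points above the homecage points, *Mrps18b*, *Mrps34* and *Mrps26* have all SOR points below, and *Mrps6*, *Mrpl40* and *Mrps25* overlap.

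Expressed per kilobase of mRNA (RPKM, on the median length of each gene's annotated coding transcripts), the level of these genes differed more between genes than between mice. The highest were *Mrps21* at 70.1, *Mrps17* at 57.3, *Mrpl42* at 53.0, *Mrpl20* at 51.6 and *Mrpl41* at 49.0 RPKM, averaged over the 8 mice. The lowest were *Mrpl47* at 3.27, *Mrpl35* at 3.53 and *Mrps35* at 3.55 RPKM, so that the range spanned 21.4-fold. *Mrps17* in homecage and SOR mice was at 57.0 ± 3.96 and 57.6 ± 4.12 RPKM and *Mrpl42* at 53.4 ± 2.25 and 52.6 ± 5.34 RPKM (SD, n = 4 each), so these neighbours in the order differed by less than the larger SD. *Mrps21*, at 70.7 ± 3.88 and 69.6 ± 6.74 RPKM, stood above them by more than its SD. The order depends on the transcript length used. With the length of all annotated exons in its place, 2 of the 5 highest genes, *Mrpl41* and *Mrps21*, stayed among the 5 highest. The median level was 14.3 RPKM for the large subunit genes and 11.9 RPKM for the small subunit genes. Cytosolic ribosomal protein genes had a median of 147 RPKM and nuclear-encoded respiratory chain subunits, the partners of the mitoribosome's products, a median of 69.9 RPKM. The copy number of mitochondrial DNA and of the proteins was not measured here.

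*Mrpl23* was the most variable gene, with a residual SD of 0.47 in log2 CPM. It was at 3.16, 2.65, 3.3 and 2.77 CPM in homecage mice 1 to 4 and at 2.76, 3.96, 3.35 and 1.41 CPM in SOR mice 1 to 4. A pseudogene, *Mrpl23-ps1* (ENSMUSG00000075279, chr2:74591330-74591909), is identical to the *Mrpl23* mRNA over 540 bases and was at 20.7, 21.7, 21.1 and 20.4 CPM in homecage mice 1 to 4 and at 20.2, 19.4, 19.7 and 22.4 CPM in SOR mice 1 to 4. SOR mouse 4, lowest in *Mrpl23*, was highest in the pseudogene, and SOR mouse 2, highest in *Mrpl23*, was lowest in the pseudogene. Reads of the identical stretch cannot be assigned to either gene, so the *Mrpl23* level is uncertain. The summed *Mrpl23* and *Mrpl23-ps1* counts gave 23.9 ± 0.567 CPM in homecage mice against 23.3 ± 0.398 CPM in SOR mice (SD, n = 4 each), with a log2 fold change of -0.04 (95% interval -0.15 to 0.07). Among pseudogenes at least 95% identical to a member over at least 300 bases, 20 copies of 17 genes were found, and the other 19 each held less than 2% of the CPM of the gene they resemble.

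The other genes varied little between mice of a group. The median residual SD was 0.08 in log2 CPM, against 0.17 over all genes tested, which span a wider range of expression. *Mrps26*, *Mrps25* and *Mrpl49* were the steadiest. *Mrps25* was at 53.5 ± 1.41 CPM in homecage mice against 51.8 ± 0.794 CPM in SOR mice, and *Mrpl49* was at 30.3 ± 0.864 and 31.6 ± 0.503 CPM (SD, n = 4 each). After *Mrpl23*, the largest residual SDs were those of *Mrps11* at 0.29 and *Mrps6* at 0.25. *Mrps11* was at 5.83 CPM in homecage mouse 1 and between 9.58 and 10.2 CPM in the other homecage mice, and without that mouse its log2 fold change went from 0.09 to -0.06.

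The genes moved together from mouse to mouse to a modest extent. The mean pairwise Pearson correlation of log2 CPM deviations from the group mean was 0.187 over the 78 genes, 0.261 over the cytosolic ribosomal protein genes, 0.299 over the respiratory chain genes and 0.0067 over all genes tested, each over the same 8 libraries. *Mrps30*, *Mrpl42* and *Mrps24* followed the mean of the other members most closely, with correlations of 0.94, 0.92 and 0.92 over these 8 mice. For 10 genes the correlation was negative, and *Mrpl23* was the lowest at -0.51. All 78 genes share library depth and scaling, so these are descriptions of 8 libraries.

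As a set, the median deviation of the 78 genes from their own mean over all mice, in log2 CPM, was -0.01, 0.03, 0.04 and 0.02 in homecage mice 1 to 4. In SOR mice 1 to 4 it was 0.06, -0.04, -0.06 and 0.02. The SOR group held both the highest mouse, SOR 1, and the lowest, SOR 3, and the homecage mice lay between them. The share of counts on the genes of the small nuclear and cytosolic RNAs 7SK and 7SL (*Rn7sk*, *Rn7s1* and *Rn7s2*) was 14.8%, 11.7%, 9.95% and 12.9% in homecage mice 1 to 4 and 9.98%, 13%, 12.6% and 12.2% in SOR mice 1 to 4. It was lowest in homecage mouse 3 and SOR mouse 1, the highest mice for the set, and highest in homecage mouse 1, the lowest homecage mouse, and its part in the set values was not tested. The number of genes above their own mean was 33, 55, 46 and 48 of 78 in homecage mice 1 to 4 and 52, 22, 11 and 46 in SOR mice 1 to 4. Summed over the set, the level was 1700.3 ± 26.8 CPM in homecage mice against 1672 ± 61.7 CPM in SOR mice (SD, n = 4 each), a difference smaller than the SD of the SOR mice. Without SOR mouse 3 the 78 genes split evenly, 39 higher and 39 lower, with a median log2 fold change of -0.00041. Over all genes tested 42.9% were higher in that fit, with a median of -0.025. Without SOR mouse 2 the 78 genes split into 33 higher and 45 lower, with a median of -0.013, against -0.027 over all genes. Without SOR mouse 1 they split into 18 higher and 60 lower, with a median of -0.06, against -0.016 over all genes. The median of the 78 genes thus stood above that of all genes without SOR mouse 2 or 3. It stood below with all samples and without SOR mouse 1 or 4. It also stood below without homecage mouse 1, 2 or 4, and was nearly level without homecage mouse 3, with a difference of -2.6e-05.

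In other nuclear sets, the order within the SOR group was the same, from SOR 1 down to SOR 4, SOR 2 and SOR 3, while the order over all 8 mice differed. The cytosolic ribosomal protein genes, which build the ribosome that makes the Mrpl and Mrps proteins themselves, had median deviations of 0.04 in SOR 1, -0.06 in SOR 2, -0.07 in SOR 3 and -0.02 in SOR 4. The respiratory chain genes had 0.07, -0.06, -0.07 and 0.01 in the same mice. The median mRNA length was 1224.5 bases for the 78 genes, 757 for the cytosolic ribosomal protein genes and 731 for the respiratory chain genes, against 2729 over all genes tested. The 983 genes tested whose mRNAs are under 1000 bases had median deviations of 0.04, -0.05, -0.07 and 0.01 in SOR mice 1 to 4. The offsets for GC content and length used the length of all annotated exons of a gene, not the mRNA length given above. With these offsets, the median log2 fold change was -0.0097 over the 78 genes and -0.0049 over all genes tested. TMM and RLE scaling hold no term for length. With TMM these medians were -0.012 and 0.00058, and with RLE they were -0.010 and 0.0019. The median of the 78 genes minus that of all genes was -0.0135 in the main fit. It was -0.0124 with TMM, -0.0124 with RLE and -0.0048 with the offsets. The part of length in these values was not tested.

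**Figure D3:**
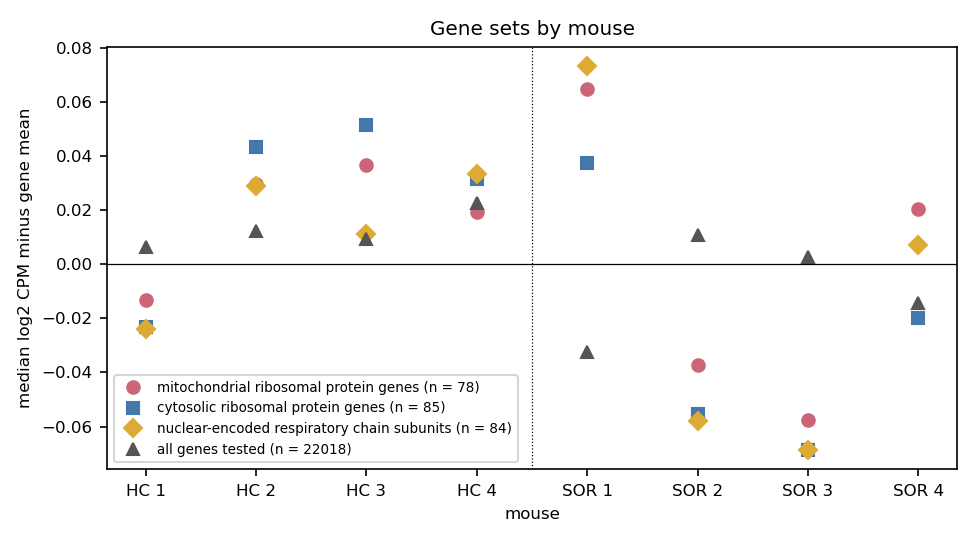
Median deviation of log2 CPM from each gene's mean over the 8 mice (y axis) for 4 gene sets in each mouse (x axis; HC, homecage). SOR 1 is high and SOR 2 and SOR 3 are low in the mitochondrial ribosomal, cytosolic ribosomal and respiratory chain sets, while the median of all 22018 genes tested stays between -0.03 and 0.02.

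**Figure D4:**
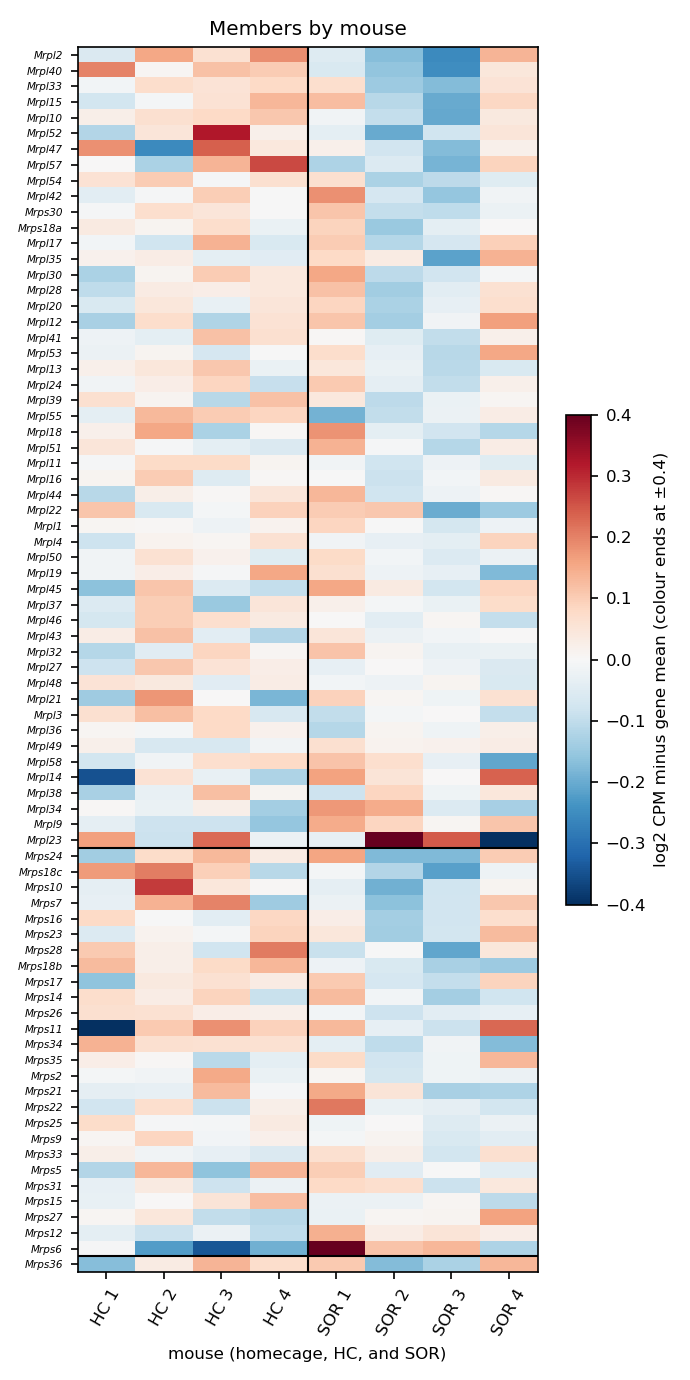
Deviation of log2 CPM from the gene's mean over the 8 mice (colour, ending at 0.4 in either direction) for each of the 78 genes (rows; large subunit, small subunit and *Mrps36* from top to bottom, ordered within a subunit by the mean of SOR 2 and SOR 3) in each mouse (columns). Blue cells prevail in SOR 2 and SOR 3, where 22 and 11 of the 78 genes stand above their mean, and the dark cells at *Mrpl23* and *Mrps11* mark the most variable genes.

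Of the 88 genes listed for the cytosolic ribosome, 85 were tested, 10 were higher and 75 lower after SOR, the median log2 fold change was -0.05 and none was called. Of the 85 genes listed for the nuclear-encoded respiratory chain, 84 were tested, 26 were higher and 58 lower, the median was -0.03 and none was called. The 13 protein genes of mitochondrial DNA, the only templates of the mitoribosome, gave 3 higher and 10 lower with 0 called and a median of -0.02. Its ribosomal RNA genes, *mt-Rnr1* and *mt-Rnr2*, had log2 fold changes of -0.09 and -0.06 with adjusted p of 0.666 and 0.836 (edgeR). The methods name depletion of ribosomal RNA while the labels name polyA RNA, and the part of either step in these 2 values was not tested.

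The rest of the mitochondrial translation pathway also gave no called gene. Among 5 mitoribosome proteins with other symbols, 1 was higher and 4 lower after SOR, and the smallest p was that of *Chchd1*, at 19.9 ± 0.971 CPM in homecage mice against 18.5 ± 0.623 CPM in SOR mice (SD, n = 4 each; adjusted p = 0.625, edgeR). *Ptcd3*, a small subunit protein, followed at 53.1 ± 2.32 CPM in homecage mice against 50.2 ± 2.54 CPM in SOR mice (SD, n = 4 each; adjusted p = 0.638, edgeR). Among 25 assembly factors, 12 were higher and 13 lower. *Gtpbp10*, a GTPase of large subunit maturation, had a log2 fold change of -0.21 and *Mtg2*, another such GTPase, one of 0.12, with adjusted p of 0.665 and 0.673 (edgeR).

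Among 16 translation factors, 5 were higher and 11 lower. *Guf1* encodes the mitochondrial counterpart of the bacterial elongation factor LepA, and it had the smallest p of all pathway genes outside the ribosome. It was at 38.8, 40.5, 40.5 and 42.2 CPM in homecage mice 1 to 4 and at 33.7, 36.4, 33.9 and 35.4 CPM in SOR mice 1 to 4. Every SOR value lay below every homecage value (log2 fold change -0.22, standard error 0.048, adjusted p = 0.122, edgeR). DESeq2 and the fits with 1, 2 and 3 RUVs factors called *Guf1*. *Mtrf1*, of the release factor family, had a log2 fold change of -0.25 with overlapping groups (adjusted p = 0.463, edgeR).

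For mitochondrial transcription and RNA handling, 21 of 23 listed genes were matched and tested, 6 higher and 15 lower. *Fastkd5*, which encodes a factor that processes mitochondrial transcripts, was at 10.6, 10.6, 10.9 and 10.9 CPM in homecage mice 1 to 4 and at 12.5, 12.8, 12 and 13 CPM in SOR mice 1 to 4. The groups were separate (log2 fold change 0.22, adjusted p = 0.272, edgeR), and DESeq2 called *Fastkd5*. *Mterf2* was at 12.7 ± 1.07 CPM in homecage mice against 11.3 ± 0.849 CPM in SOR mice (SD, n = 4 each). Among the 10 nuclear regulators, 8 were higher and 2 lower. *Gabpa*, the DNA-binding subunit of nuclear respiratory factor 2, was at 44.6, 44.2, 45.6 and 43.8 CPM in homecage mice 1 to 4 and at 53.3, 48.3, 47.1 and 46.0 CPM in SOR mice 1 to 4. It was higher in every SOR mouse (log2 fold change 0.13, adjusted p = 0.439, edgeR). *Pprc1*, a coactivator related to PGC-1alpha, had a log2 fold change of 0.33 with overlapping groups (adjusted p = 0.49, edgeR).

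The 78 genes lie on 17 chromosomes, with 11 on chromosome 11 and 8 on chromosome 17. A protein-coding gene that starts within 1000 bp on the opposite strand and runs the other way was found for 33 of them, or 42.3%, against 14.1% of the 15759 protein-coding genes tested. *Mrpl46* and *Mrps11*, both among the 78 genes, are each other's partner. Among these 33 partners 1 was called, against 0.309% of all genes tested. It was *Zfp189*, which encodes a zinc finger protein and starts 83 bp from *Mrpl50*. *Zfp189* was at 34.9, 38.0, 40.7 and 41.4 CPM in homecage mice 1 to 4 and at 50.5, 51.8, 47.0 and 50.8 CPM in SOR mice 1 to 4, and it rose (log2 fold change 0.37, adjusted p = 0.0353, edgeR). *Mrpl50*, on the other strand, was at 28.4, 30.0, 29.1 and 27.8 CPM in homecage mice 1 to 4 and at 30.3, 28.5, 27.7 and 28.3 CPM in SOR mice 1 to 4. Its groups overlapped fully (log2 fold change -0.01, 95% interval -0.12 to 0.11).

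The pair of *Mrpl30* and *Mitd1*, whose starts are 66 bp apart, gave a like picture without a call. *Mitd1*, a gene of abscission in cell division, was at 5.08 ± 0.305 CPM in homecage mice against 6.29 ± 0.222 CPM in SOR mice (SD, n = 4 each; log2 fold change 0.31, adjusted p = 0.258, edgeR), while *Mrpl30* had a log2 fold change of -0.01. *Sars2*, the mitochondrial seryl-tRNA synthetase, starts 172 bp from *Mrps12* and had a log2 fold change of opposite sign. *Sars2* was at 5.65, 5.38, 5.89 and 6.66 CPM in homecage mice 1 to 4 and at 4.59, 4.59, 5.01 and 4.89 CPM in SOR mice 1 to 4, lower in every SOR mouse (log2 fold change -0.31, adjusted p = 0.326, edgeR). These 3 partners were named for the smallest p among the 33, so their size is a description of the selected pairs, and the difference between the genes of a pair was not tested.

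Promoter windows from RefSeq on GRCm38.p6, from 250 bases before to 50 after the start, were found for 69 of the 78 genes. Each was searched on both strands for motifs of nuclear respiratory factor 1 (NRF1: GCGCA, any base, GCGC), of the ETS family to which GABPA belongs (CCGGAAG) and of YY1 (AAGATGGCG). Windows are shown 5' to 3' on the gene's strand, in lower case with matches to these motifs in capitals. The first is that of *Mrpl9* (chr3:94443086-94443385, plus strand), the gene with the smallest p, which holds an NRF1 match. The next are those of *Mrps12* (chr7:28741772-28742071, minus strand), shared with *Sars2* and holding an ETS match, and of *Mrpl42* (chr10:95501900-95502199, minus strand), a highly expressed member that holds a YY1 match. The last is that of *Mrpl50* (chr4:49521034-49521333, minus strand), shared with *Zfp189* and without a match.
Mrpl9: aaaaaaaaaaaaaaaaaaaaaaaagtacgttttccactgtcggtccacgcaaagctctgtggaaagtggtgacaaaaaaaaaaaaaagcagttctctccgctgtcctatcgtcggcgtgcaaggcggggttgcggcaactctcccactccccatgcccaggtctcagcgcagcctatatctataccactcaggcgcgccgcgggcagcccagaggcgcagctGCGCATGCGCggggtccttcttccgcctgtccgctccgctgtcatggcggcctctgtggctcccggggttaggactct
Mrps12: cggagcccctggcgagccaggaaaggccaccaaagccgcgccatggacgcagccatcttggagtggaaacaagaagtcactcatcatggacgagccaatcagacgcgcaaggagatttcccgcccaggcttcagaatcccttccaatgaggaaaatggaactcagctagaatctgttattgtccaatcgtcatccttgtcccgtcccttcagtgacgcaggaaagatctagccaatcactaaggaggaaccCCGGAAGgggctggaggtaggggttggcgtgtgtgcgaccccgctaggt
Mrpl42: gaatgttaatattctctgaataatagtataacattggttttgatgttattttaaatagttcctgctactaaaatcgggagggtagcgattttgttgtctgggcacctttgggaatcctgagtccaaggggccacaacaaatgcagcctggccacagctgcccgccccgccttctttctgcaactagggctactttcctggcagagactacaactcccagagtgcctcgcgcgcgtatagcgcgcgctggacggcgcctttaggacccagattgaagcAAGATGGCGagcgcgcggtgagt
Mrpl50: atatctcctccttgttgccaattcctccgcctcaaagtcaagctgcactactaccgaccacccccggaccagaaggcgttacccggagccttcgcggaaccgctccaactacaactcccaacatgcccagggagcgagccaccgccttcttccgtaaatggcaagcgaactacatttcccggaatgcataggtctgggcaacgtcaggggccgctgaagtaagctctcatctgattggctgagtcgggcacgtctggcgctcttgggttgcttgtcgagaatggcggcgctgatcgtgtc

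NRF1 matches stood in 18.8% of the 69 windows and in 9.18% of the 12175 windows of protein-coding genes tested. ETS matches stood in 34.8% against 15.8%, and YY1 matches in 11.6% against 2.69%. At least 1 of the 3 motifs was found in 56.5% of the members' windows and in 25.0% of those of all protein-coding genes tested, whereas the CCAAT motif (39.1% against 38.5%) and the TATAAA motif (5.80% against 7.96%) were about as frequent in both. These are matches of letters, not sites shown to be bound, and an ETS and a YY1 match can share the letters AAG. The median log2 fold change was 0.01 over the 13 members with an NRF1 match and -0.04 over the 56 without. The 24 with an ETS match had a median of -0.02 and the 45 without had -0.03. For YY1 the medians were 0.0019 over the 8 with a match and -0.03 over the 61 without. For CCAAT they were -0.04 over 27 and -0.02 over 42, and for TATAAA -0.04 over 4 and -0.02 over 65. These differences were not tested.

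Exons shared with other genes limit some of these values. Same-strand overlap with another gene's exons was annotated for 8 of the 78 genes, the largest being that of *Mrpl53*, with 88.0% of its exonic length shared with *Gm42688*. Opposite-strand overlap was annotated for 28. It covers 69.8% of the exonic length of *Mrps25*, shared with *Nr2c2* (131 CPM on average, log2 fold change -0.05). For *Mrps34* it covers 63.4%, shared with *Mapk8ip3* (289 CPM on average). Whether reads of these 2 genes entered the values of *Mrps25* (52.6 CPM on average) and *Mrps34* (17.6 CPM) was not tested. The library kit marks strand, and whether the counting used it is not given in the sources used here.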

How the data were processed

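Bulk RNA-seq of dorsal hippocampus was analysed for 4 homecage and 4 SOR samples, grouped by their deposited labels. The values deposited by the authors are estimated counts per gene, summarized with tximport and not normalized, of which 52.6% are not whole. The methods name a stranded total RNA kit with ribosomal RNA depletion, 150-bp paired-end reads, and STAR and featureCounts within bcbio-nextgen, while the labels name polyA RNA; the labels give mm10. Which tool quantified the reads before tximport is not given in the sources used here. Each sample is the library of 1 mouse. No deposited per-sample column was left unused.

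Counts were rounded, filtered with filterByExpr, scaled with upper-quartile factors and tested by quasi-likelihood in edgeR 4.0.16 (R 4.3.3), two-sided, and p was adjusted by Benjamini-Hochberg over 22018 genes. The study's RUVs step was run as an alternative, since its number of factors is not stated. GENCODE M21 gave 54495 of 54532 genes a record, from which symbols, positions and lengths were taken. CPM values in log2 used a prior count of 2. Genes were named if they were called, among the 6 highest or 6 lowest log2 fold changes, the 5 highest or 3 lowest RPKM, the 3 smallest or 3 largest residual SDs, or if their symbol and structure differ; in each pathway list the 2 genes with the smallest p, and the 3 divergent partners with the smallest p, were named. The members and lists were chosen with earlier results of these data known. Fits were tested on simulated data. The alternatives were scaling by TMM, RLE or library size, upper-quartile factors from protein-coding genes, 2 other filters, the likelihood ratio test alone and with RUVs factors, DESeq2 1.42.0, limma-voom (limma 3.58.1), unrounded counts, GC content and length offsets, the replicate number as a block, and each sample left out. Summing each gene with near-identical pseudogenes, found with blastn 2.17.0, was chosen after seeing the data. Same-numbered samples did not deviate together (correlations of residuals -0.08 to 0.07, against -0.20 to 0.19 for other numbers). Pairs of replicates differed by a chi-square of 11.9 to 54.1 for each degree of freedom, so no library was a repeat of another. Tables and figures were made with Python 3.11.15, pandas 2.3.3, numpy 2.4.6 and matplotlib 3.10.9.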

Additional observations from a re-analysis of the deposited data

Results flagged for a closer look

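A single mouse stood apart from the other 3 of its group in 3 of the named genes, each time homecage mouse 1. *Mrps11* was at 5.83 CPM in homecage mouse 1 and between 9.58 and 10.2 CPM in the other homecage mice. *Mrps17* was at 44.3 CPM in that mouse and between 50.7 and 51.8 CPM in the others. *Mrps34* was at 19.4 CPM in that mouse and between 18.3 and 18.4 CPM in the others. A gap of this size relative to the group's range was met in 6 of the 156 gene and group combinations of the 78 genes, and chance gives it in about 1 of 20.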

How the results depend on the processing

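The count of called mitochondrial ribosomal protein genes was 0 in every alternative and every fit without 1 sample, except for 1 with DESeq2 (*Mrpl9*) and 1 with 2 RUVs factors (*Mrps6*). The count for the 5 pathway lists was 0, except for 2 with DESeq2 (*Guf1* and *Fastkd5*) and 1 with each of 1, 2 and 3 RUVs factors (*Guf1*). Over all genes, 68 were called, against 214 with the likelihood ratio test, 435 with DESeq2, 305, 500 and 508 with 1, 2 and 3 RUVs factors, and 30 to 55 without 1 sample; the cause was not tested. The median log2 fold change of the 78 genes lay between -0.04 and -0.01 with all samples and between -0.06 and -0.00041 without 1 sample. With the replicate number as a block the numbers of calls were 0 among the 78 genes, 0 in the pathway lists and 40 over all genes, and the median was -0.03; the samples share only a number.

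Of the 27 members named by the rules given above, 8 changed sign in at least 1 setting, all with adjusted p above 0.7 there. Other members given in the text, such as *Mrpl10*, *Mrpl11*, *Mrpl12*, *Mrpl30* and *Mrpl50*, were not part of this check. *Mrpl20* was at 0.0205 with TMM, 0.0219 with RLE, 0.0078 with library size scaling, 0.0041 with the filter of more than 5 counts in 2 samples, 0.0217 with DESeq2, 0.0016 with 1 RUVs factor and 0.0232 with GC content and length offsets. *Mrpl42* was at 0.00079, 0.0020, 0.0022 and 0.0028 with TMM, RLE, DESeq2 and these offsets. *Mrps21* was at 0.00034, 0.00065 and 0.0080 with RLE, DESeq2 and the offsets, and *Mrps36* at 0.0017 with the offsets. Leaving out 1 sample gave ranges of -0.0315 to 0.0403 for *Mrpl20*, -0.237 to 0.171 for *Mrpl23*, -0.0220 to 0.0945 for *Mrpl35*, -0.0921 to 0.0261 for *Mrpl42*, -0.0596 to 0.169 for *Mrps11*, -0.0322 to 0.0484 for *Mrps17*, -0.0805 to 0.0181 for *Mrps21* and -0.0874 to 0.0196 for *Mrps36*.

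Depth did not limit the 78 genes evenly: the lowest count of any of them in a library was 72.5, for *Mrpl23*, which shares its sequence with a pseudogene and has the widest interval. With 4 mice a group, the 95% intervals leave changes of up to about 1.2-fold possible in many genes. The RPKM order depends on the transcript lengths chosen, and the counts of genes with shared exons or copies depend on how the authors assigned reads.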
